A study of Mus musculus with 2 samples.

Results

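The T cell receptor complex and T cell genes examined here were Cd3d, Cd3e, Cd3g, Cd247, Cd4, Cd8a, Cd6, Cd2, Lck and Zap70, 10 of the 22911 genes named on the array. Their probes were found through the RefSeq accession of each non-control probe, which gave 18 of 56604 probes, with 1 to 3 probes a gene. The study compared whole pancreas of a WT mouse with that of an Nrdc-cKO mouse, a Ptf1a-Cre; Nrdcflox/flox animal in which Cre, expressed under the acinar and progenitor transcription factor Ptf1a, removes the gene for nardilysin. Both samples came from male C57BL/6 mice aged 5 weeks, and each was measured as total RNA on 1 one-colour Agilent array (Cy3). The sources used here do not say which alleles the WT mouse carried or whether animals were pooled. Ptf1a-Cre acts in pancreatic epithelium, so T cells are not among the cells it is meant to recombine. With 1 array a group the spread between animals is unknown, nothing could be tested, and the values describe these 2 samples. Both arrays were read on the same slide.

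The T cell receptor binds antigen but has no signalling tail of its own. It is assembled with the CD3 gamma, delta and epsilon chains and a dimer of the CD3 zeta chain (Cd247), whose tyrosine motifs are phosphorylated by the kinase Lck, which is bound to the co-receptors CD4 and CD8, and are then bound by the kinase Zap70. CD2 and CD6 are surface receptors that support contact with the partner cell. In an intact pancreas T cells are sparse, and they gather where the gland is inflamed. Outside T cells, natural killer cells also express Cd247, Lck, Zap70 and, in the mouse, Cd2, mouse B cells express Cd2, and subsets of dendritic cells express Cd4 or Cd8a.

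The 10 genes fell into those seen on both arrays and those seen in Nrdc-cKO alone. A probe was called detected when the scanner software marked it as well above background. On the WT array 5 of the 10 genes were detected, against 57.7% of all named genes, and on the Nrdc-cKO array 9 of 10, against 69.2%. Cd3d, Cd3e, Cd247, Cd4 and Cd6 were detected on both arrays. Cd3g, Cd2, Lck and Zap70 were detected in Nrdc-cKO alone, a pattern shown by 12.4% of all named genes. Cd8a was detected on neither. No gene of the list was detected on the WT array only, a pattern shown by 0.873% of named genes. Of the 18 probes, 7 were detected on both arrays, 7 in Nrdc-cKO alone and 4 on neither. RNA of the whole gland was measured, so fewer cells of a type and less RNA per cell cannot be told apart.

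**Figure D1:**
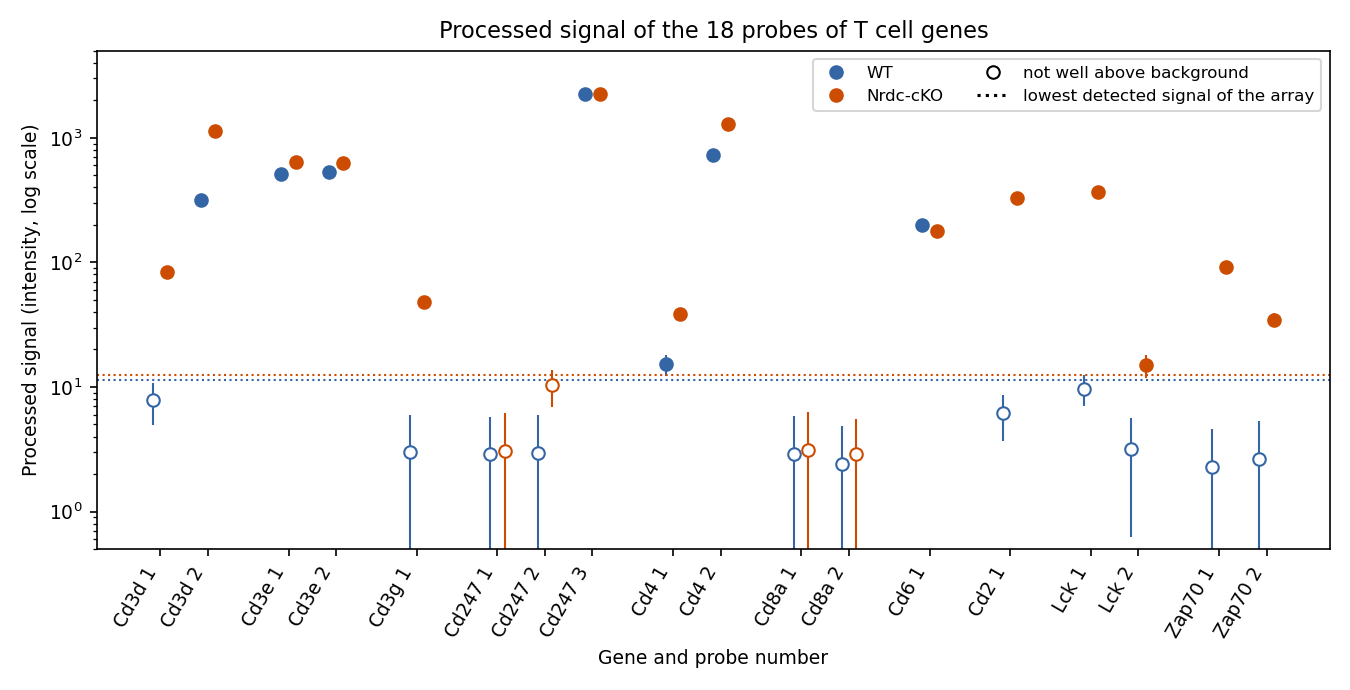
Processed signal (intensity, log scale) of the 18 probes on the WT array (blue) and the Nrdc-cKO array (orange), with bars for the scanner software's error estimate of the spot, cut at the axis where the error is as large as the signal. Open circles are probes not well above background, and dotted lines mark the lowest detected signal of each array, 11.4 on WT and 12.6 on Nrdc-cKO. Probes of Cd3g, Cd2, Lck and Zap70 are open on WT and filled on Nrdc-cKO, while both Cd3e probes, Cd247 probe 3 and the Cd6 probe lie at nearly the same height on both arrays.

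Signals are given first as the scanner software wrote them, without scaling between arrays, with its own error estimate of the spot after ±, which is no spread between animals. They were then put on a log2 scale relative to the 75th percentile of each array. That percentile was 1.68 higher in Nrdc-cKO on the log2 scale, so a probe with an equal processed signal on both arrays stands 1.68 lower on the Nrdc-cKO array after scaling. The median unscaled difference of all probes detected on both arrays was 1.42 in the same direction. Unscaled, and counting those not detected, 16 of the 18 probes had a higher signal on the Nrdc-cKO array and 2 a lower one. All differences below are Nrdc-cKO minus WT.

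Cd3e encodes CD3 epsilon, the chain that pairs with both gamma and delta. Its first probe had a signal of 516 ± 51.6 on WT and 641 ± 64.2 on Nrdc-cKO, and its second 531 ± 53.1 and 628 ± 62.9. Unscaled, the Nrdc-cKO signal was higher by 0.31 and 0.24 on the log2 scale, a little more than the spot error of 0.20. After scaling the gene stood at 2.89 on WT and 1.48 on Nrdc-cKO, a log2 difference of -1.41 (2.65-fold lower), with -1.37 and -1.44 for the single probes. Cd247, the zeta chain that carries most of the signalling motifs, was represented by 3 probes for different transcripts. The probe for NM_001113391 had 2241 ± 224 on WT and 2228 ± 223 on Nrdc-cKO, and its scaled difference was -1.69 (3.23-fold lower). The probes for NM_031162 and NM_001113393 were not well above background on either array, with signals of 2.87 and 2.98 on WT and 3.07 and 10.3 on Nrdc-cKO. The value of Cd247 thus rests on 1 of its 3 probes.

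Cd3d encodes CD3 delta. Its brighter probe had 318 ± 32.0 on WT and 1135 ± 114 on Nrdc-cKO, with levels of 2.17 and 2.32 and a scaled difference of 0.15, within the spot error of 0.20. Its other probe was not well above background on WT, at 7.88 ± 2.89, and had 83.9 ± 8.91 on Nrdc-cKO, at least 2.29-fold higher after scaling. Both probes were brighter on Nrdc-cKO before scaling, and only the dimmer one passed 2-fold after it. For a probe detected on 1 array the bound sets its scaled level there against the lowest detected level of the other array or its own level there, whichever is higher. Cd3g encodes CD3 gamma, and its single probe had 2.99 ± 2.99 on WT, no more than its error, and 47.8 ± 5.76 on Nrdc-cKO. The bound was at least 1.31-fold higher. Cd3e stood lower after scaling, and so apart from Cd3d and Cd3g on the same arrays. Cd3d was level by 1 probe and higher by the other, and Cd3g appeared in Nrdc-cKO alone. The bound of Cd3g, 0.39 on the log2 scale, does not separate it from Cd3d.

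Cd3g, Cd3d and Cd3e are direct neighbours in that order on chromosome 9 in RefSeq, with Cd3g and Cd3d pointing away from each other. Their promoter windows (RefSeq, build GRCm38.p6, 250 bases before to 50 after the start, 5′ to 3′) are printed because Cd3e stood apart. Capitals mark, on either strand, CAGGTG or CAGCTG (E-box), TGTGGT or TGCGGT (RUNX) and CTTTGA (TCF/LEF).
Cd3g, chr9:44980382-44980681, minus strand: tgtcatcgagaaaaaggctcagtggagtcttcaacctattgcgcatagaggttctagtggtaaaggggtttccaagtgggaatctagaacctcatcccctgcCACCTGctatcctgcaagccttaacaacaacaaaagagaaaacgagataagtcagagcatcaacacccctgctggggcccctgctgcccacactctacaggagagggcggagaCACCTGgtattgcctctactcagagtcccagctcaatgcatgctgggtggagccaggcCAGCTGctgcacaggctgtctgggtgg
Cd3d, chr9:44981536-44981835, plus strand: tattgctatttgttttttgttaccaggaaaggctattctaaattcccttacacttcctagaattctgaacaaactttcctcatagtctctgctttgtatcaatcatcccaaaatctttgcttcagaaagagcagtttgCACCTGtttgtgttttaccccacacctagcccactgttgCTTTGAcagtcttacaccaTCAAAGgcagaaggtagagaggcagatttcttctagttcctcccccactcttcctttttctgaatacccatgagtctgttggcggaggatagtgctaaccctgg
Cd3e, chr9:45009562-45009861, minus strand: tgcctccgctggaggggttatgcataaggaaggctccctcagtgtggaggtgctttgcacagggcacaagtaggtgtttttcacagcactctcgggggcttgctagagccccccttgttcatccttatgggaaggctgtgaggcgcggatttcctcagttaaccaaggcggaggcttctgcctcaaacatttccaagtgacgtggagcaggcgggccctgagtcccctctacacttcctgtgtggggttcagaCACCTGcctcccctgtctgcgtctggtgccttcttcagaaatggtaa
The Cd3g window held CAGGTG at 2 places and CAGCTG at 1. The Cd3d window held CAGGTG at 1 place and CTTTGA at 2, and the Cd3e window CAGGTG at 1. Of the 10 genes, 7 had a window in the table, 10 windows in all, and 8 of these held CAGGTG on either strand, against 20.2% of all 32851 windows. CAGCTG was in 2 of the 10 windows (16.3% of all), CTTTGA in 3 (16.0%), TGTGGT in 2 (16.8%), TGCGGT in 1 (6.45%) and the ETS core GGAA, not capitalised, in 9 (96.0%). These are matches of letters, which the windows of 1 gene do not give independently, and say nothing of binding.

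Cd4 and Cd8a encode the co-receptors that bind MHC class II and class I molecules. The brighter Cd4 probe had 724 ± 72.4 on WT and 1290.1 ± 129 on Nrdc-cKO, and the dimmer one 15.2 ± 2.94 and 38.6 ± 4.72. Both were brighter on Nrdc-cKO before scaling and lower after it, at -0.85 and -0.34. The gene difference was -0.59 (1.51-fold lower), short of 2-fold. The errors from the spots were 0.20 and 0.33. The 2 Cd8a probes had 2.89 and 2.42 on WT and 3.11 and 2.89 on Nrdc-cKO, at about the size of their errors. No fold is given for Cd8a, and at this signal over background a difference was not detectable. Cd8b1, the partner chain of Cd8a, chosen after its value was seen, was detected in Nrdc-cKO alone, at least 1.65-fold higher.

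CD2 and CD6 act beside the receptor. The Cd2 probe had 6.14 ± 2.42 on WT, not well above background, and 329 ± 33.0 on Nrdc-cKO, with a bound of at least 3.17 on the log2 scale after scaling. This bound was higher than that of 98.4% of the 2834 genes detected in Nrdc-cKO alone. Cd48, which encodes a ligand of CD2 in the mouse, was measured on both arrays at 2.34 (5.07-fold higher). The Cd6 probe went the other way, with 199 ± 20.1 on WT and 179 ± 18.1 on Nrdc-cKO, and a scaled difference of -1.84 (3.57-fold lower). Only 4.2% of the 13001 genes with a value on each array had a lower difference than Cd6. Alcam, the ligand of CD6, chosen after its value was seen, stood at -0.14, and Cd5, a close relative of Cd6 on T cells, was detected in Nrdc-cKO alone at a bound of at least 1.91-fold.

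Lck and Zap70 are the kinases that start the signal. The brighter Lck probe had 9.70 ± 2.70 on WT and 365 ± 36.6 on Nrdc-cKO, at least 9.98-fold higher. The other Lck probe had 3.15 ± 2.53 and 15.0 ± 3.12, just above the lowest detected signal of the Nrdc-cKO array, and gives no fold. The mean over both probes was a bound of at least 2.03-fold, and by single probes only the first passed 2-fold. The first Zap70 probe had 2.30 ± 2.31 on WT and 91.2 ± 9.46 on Nrdc-cKO, at least 2.49-fold higher, and the second 2.65 ± 2.66 and 34.6 ± 4.51, which gives no fold. The mean for Zap70 was at least 1.54-fold. For each kinase no probe was well above background on WT and both were on Nrdc-cKO. The lowest detected signal was similar on the arrays, 11.4 on WT and 12.6 on Nrdc-cKO. After scaling the lowest detected level was -2.64 on WT and -4.18 on Nrdc-cKO, so on this scale the arrays differed in what they could detect. On Nrdc-cKO the second probes stood at -3.92 (Lck) and -2.72 (Zap70), where no probe was detected on WT. With this scaling, the detection of these second probes on Nrdc-cKO alone therefore does not show a difference. Without scaling, the bounds over both probes were 2.70 for Lck and 2.30 for Zap70 on the log2 scale.

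Lck has 2 start sites in RefSeq (build GRCm38.p6), and their windows are shown because Lck had the highest single-probe bound of the list. The capitals are as above.
Lck upstream start, chr4:129573592-129573891, minus strand: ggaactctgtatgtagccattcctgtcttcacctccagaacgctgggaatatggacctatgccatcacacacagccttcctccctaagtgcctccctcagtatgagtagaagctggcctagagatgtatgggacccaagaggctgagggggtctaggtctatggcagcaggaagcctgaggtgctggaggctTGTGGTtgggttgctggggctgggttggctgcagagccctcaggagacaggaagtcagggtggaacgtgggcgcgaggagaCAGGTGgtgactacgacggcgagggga
Lck downstream start, chr4:129558323-129558622, minus strand: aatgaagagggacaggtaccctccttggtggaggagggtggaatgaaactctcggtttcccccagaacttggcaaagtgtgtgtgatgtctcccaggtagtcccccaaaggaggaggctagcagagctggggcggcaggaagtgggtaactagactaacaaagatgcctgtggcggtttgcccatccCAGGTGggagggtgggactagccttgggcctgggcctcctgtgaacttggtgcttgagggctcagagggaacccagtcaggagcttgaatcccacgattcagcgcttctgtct
Each window held CAGGTG at 1 place, and the upstream one also TGTGGT. The probes do not tell which start was used.

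**Figure D2:**
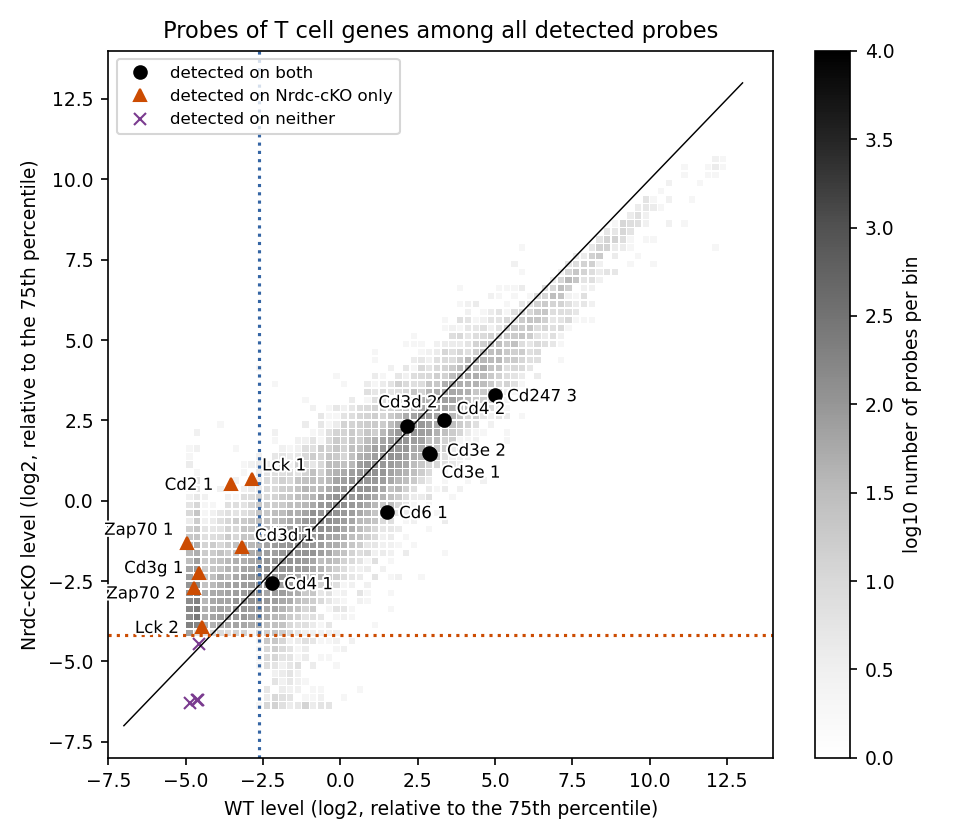
Level on the Nrdc-cKO array against that on the WT array (log2, relative to each array's 75th percentile) for the 18 probes of T cell genes over all probes detected on either array (grey, log10 number of probes per bin). The solid line marks equal levels and dotted lines the lowest detected level, -2.64 on WT and -4.18 on Nrdc-cKO. Cd6, Cd247 probe 3 and both Cd3e probes lie below the line, and Cd2 and Lck probe 1 lie above it at the left, under the lowest detected level on WT. With spike-in scaling the genes below the line lie above it.

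Counted together, none (0) of the 5 genes with a value on each array stood 2-fold or more higher, against 12.8% of all 13001 such genes, and 3 (Cd3e, Cd247 and Cd6) were lower by that much, against 17.3%. Their median was -1.41, beside -0.18 for all genes measured on both arrays. Of the 4 genes with a bound, 2 (Cd2 and Lck) had at least 2-fold, against 22.2% of the 2834 genes detected in Nrdc-cKO alone. With bounds taken at their value, the median of the 9 detected genes was 0.15, beside -0.16 for all genes treated likewise. A list this short gives no more than these counts.

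The direction of the genes seen on both arrays depended on how the arrays were scaled. With scaling on the E1A spike-in control probes, whose signal was lower in Nrdc-cKO (-0.20 on the log2 scale), the median gene moved up by 1.89. There Cd3d stood at 2.03, Cd4 at 1.29, Cd3e at 0.48, Cd247 at 0.19 and Cd6 at 0.05, so 2 genes passed 2-fold upward and 0 downward. In the authors' deposited value table, where the median gene stood 0.50 above its place here, Cd3d was at 0.65, Cd4 at -0.10, Cd3e at -0.91, Cd247 at -1.20 and Cd6 at -1.34. Cd3d was above 0 in all 12 alternatives and Cd247 and Cd6 were below 0 in 11 of 12, spike-in scaling being the exception for both. Without scaling Cd247 was at -0.0082 and Cd6 at -0.15, within their spot errors of 0.20 and 0.21. Using bright probes only or the brightest probe per gene left Cd3d, Cd247 and Cd6 unchanged, so these settings did not test their direction. For Cd6 the same held with no filter on dim probes. Cd3e and Cd4 were below 0 in 10 of 12 and above 0 with spike-in scaling and without scaling. Cd2 kept a bound above 0 in each of the 10 alternatives for bounds, from 1.51 with normexp background correction to 5.05 with spike-in scaling. Among these, taking the probe of highest bound could not change the value, since Cd2 has 1 probe.

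**Figure D3:**
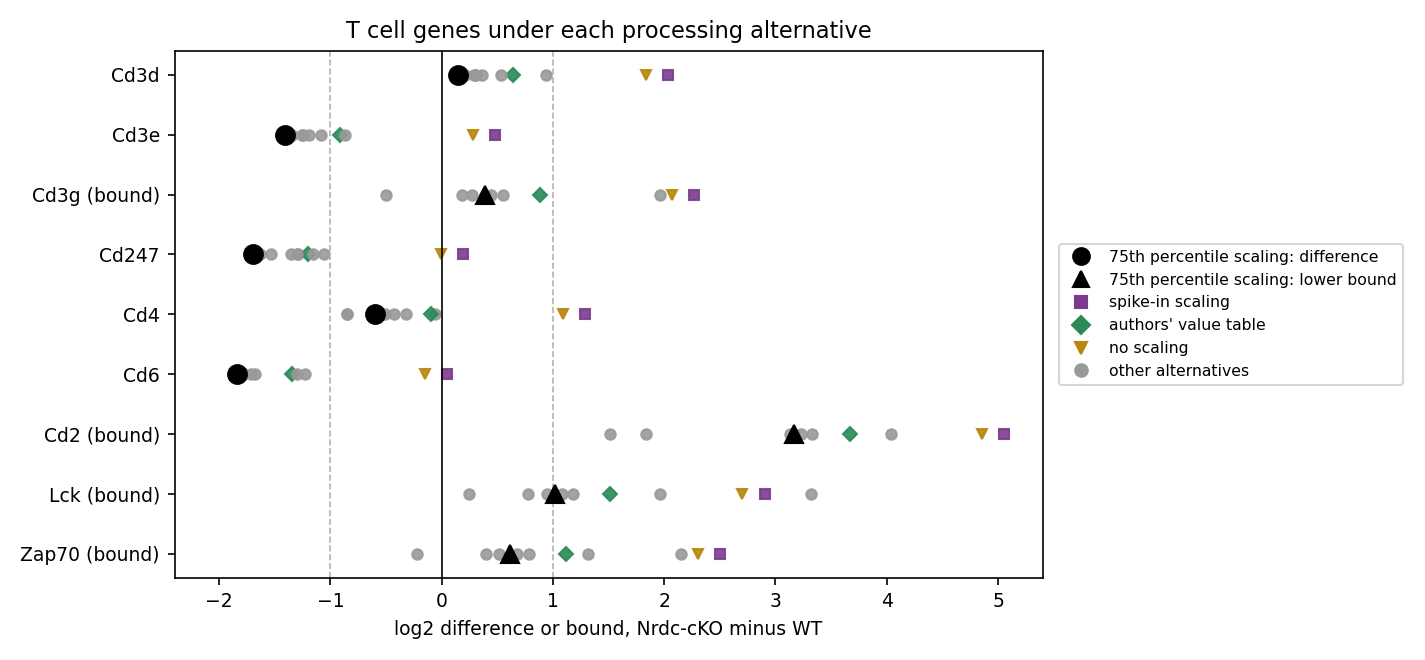
Log2 difference (black circles) or lower bound (black triangles), Nrdc-cKO minus WT, of the 9 detected T cell genes with 75th percentile scaling, and the same under spike-in scaling (squares), the authors' value table (diamonds), no scaling (inverted triangles) and the other alternatives (grey circles). Dashed lines mark 2-fold. Cd3e, Cd247 and Cd6 move from below -1 to above 0 with spike-in scaling (0.48, 0.19 and 0.05), and Cd2 stays above 1 throughout.

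Other genes of T cell signalling, homing and identity were counted from lists chosen with earlier results of these data known. Of 32 further T cell receptor signalling genes, 14 were measured on both arrays, with 3 at least 2-fold higher, 0 lower and a median of 0.15. The 3 were Vav1, a signalling protein of blood cells (2.41), Ptprc, the CD45 phosphatase of all leukocytes (1.72), and its partner Ptprcap (1.09), and none of them is restricted to T cells. A further 13 were detected in Nrdc-cKO alone, 5 with at least 2-fold, against 22.2% of all genes so detected. Among the 5 were the adaptor Skap1 (at least 5.25-fold) and the phosphatase Ptpn22 (at least 2.65-fold). Of the 13, 7 had a bound above 0. The adaptor Lat, which Zap70 phosphorylates, chosen after its value was seen, was detected in Nrdc-cKO alone and gives no fold. Of 24 co-receptors and costimulatory genes, 5 were measured on both arrays, 2 higher (Cd48, and the CD28 ligand Cd80 at 1.34) and 1 lower (the SLAM receptor Slamf6 at -1.41), and 11 were detected in Nrdc-cKO alone, 2 with at least 2-fold. These 2 of 11, against 22.2% of all genes detected in Nrdc-cKO alone, were Tnfrsf18 (GITR, at least 3.49-fold) and Cd274 (PD-L1, at least 2.61-fold). Probes for T cell receptor constant regions could not be named through RefSeq accessions, and those genes were not analysed here.

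Of 19 transcription factors of T cells, 10 were measured on both arrays, with 3 higher and 0 lower, against 12.8% and 17.3% of all genes so measured. Their median of 0.12 turned to -0.15 with normexp and the 75th percentile. The higher ones were the E protein inhibitors Id3 (2.14) and Id2 (1.13) and the factor Ets1 (1.84), all of which other cells express too. The other 9 were detected in Nrdc-cKO alone, 2 of them at 2-fold or more, Satb1 (at least 3.18-fold) and Gata3 (at least 3.02-fold). This was about the 22.2% found over all genes detected in Nrdc-cKO alone. Among 20 homing and cytokine receptor genes, 8 were measured on both arrays, 4 higher and 1 lower, with a median of 0.91. The integrin subunit Itgb7 stood at 2.78, the hyaluronan receptor Cd44 at 2.17, the egress receptor S1pr1 at 1.76 and the factor Klf2 at 1.34. The interleukin-7 receptor Il7r (at least 4.49-fold), the chemokine receptor Cxcr3 (at least 3.42-fold) and Il2rb (at least 2.27-fold) were the highest of 11 detected in Nrdc-cKO alone. These 3 of the 11 had at least 2-fold, beside a share of 22.2% over all genes so detected. Of 12 named chemokines that act on T cells, 5 were measured on both arrays and 5 were higher, with a median of 2.50. A further 6 were detected in Nrdc-cKO alone, 4 with at least 2-fold, against 22.2% of all genes so detected. These were led by Ccl19 (at least 7.01-fold) and Ccl4 (at least 6.45-fold).

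Genes of cytotoxic and natural killer cells were counted next, since these cells share several of the T cell genes. Of 17, 3 were measured on both arrays, the granzyme Gzma at 1.70, perforin Prf1 at -1.36 and the receptor Klrk1 at -0.39. Their median of -0.39 turned to 1.49 with spike-in scaling, 1.29 without scaling and 0.11 in the value table. Another 9 were detected in Nrdc-cKO alone, 1 with at least 2-fold, Nkg7 (at least 6.66-fold), against 22.2% of all genes so detected. The summed level of the list, the sum over its probes of the signal relative to the array's 75th percentile, was 4.38 on WT and 5.95 on Nrdc-cKO, and 2.20 and 5.10 without the brightest WT probe, that of Prf1. The T cell genes themselves summed to 64.8 and 31.3 on this scale, of which the Cd247 probe gave 31.7 and 9.80. The direction of their sum turned without scaling, where the processed signals summed to 4589.7 on WT and 7126.5 on Nrdc-cKO.

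Markers of other immune cells stood beside these values. B cell genes were detected in 4 of 14 on WT and 13 of 14 on Nrdc-cKO, against 57.7% and 69.2% of all named genes. Of the 9 seen in Nrdc-cKO alone, 6 had at least 2-fold, against 22.2% of all genes so detected. The summed level of the list was 5.38 and 29.8. The immunoglobulin J chain gene Jchain (at least 35.2-fold), the receptor component Cd79b (at least 21.0-fold) and the surface protein Ms4a1 (at least 9.42-fold) led, while of those measured on both arrays the adaptor Blnk stood at 2.48 and the transcription factor Pax5 at -1.92. The median of the 4 B cell genes measured on both arrays was -0.14, and it turned to 1.74 with spike-in scaling, 1.54 without scaling, 0.36 in the value table, 0.21 with loess and 0.02 with the 75th percentile over detected probes. All 14 macrophage genes were measured on both arrays, 12 higher and 0 lower, against 12.8% and 17.3% of all genes so measured. The 14 summed to 78.6 and 210.4. Of 13 dendritic cell genes, 8 were detected in Nrdc-cKO alone, and the 3 with a value on each array had a median of 2.71, the factor Irf8 at 2.88, the lectin Clec10a at 2.71 and the lectin Siglech at -0.04. They summed to 226.6 and 233.8, nearly all of it from Siglech, and to 2.87 and 15.6 without that probe. Of 10 named genes of lymph node stroma and vessels, 4 were detected on WT and 7 on Nrdc-cKO, with Cxcl13 at least 91.8-fold higher, Ltb at 4.96 and Glycam1 at -1.02, and a summed level of 17.3 and 41.6 (4.61 and 32.3 without the probe of the receptor Ltbr). Of 9 immature thymocyte genes 6 were detected on neither array, Rag2 was detected on WT only (at least 7.13-fold higher on WT), Dntt on Nrdc-cKO only (at least 1.55-fold higher), and Cd1d1, which other cells express too, was measured on both arrays at 2.71 (6.52-fold higher on Nrdc-cKO). The part of any of these cells in the T cell values was not tested.

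**Figure D4:**
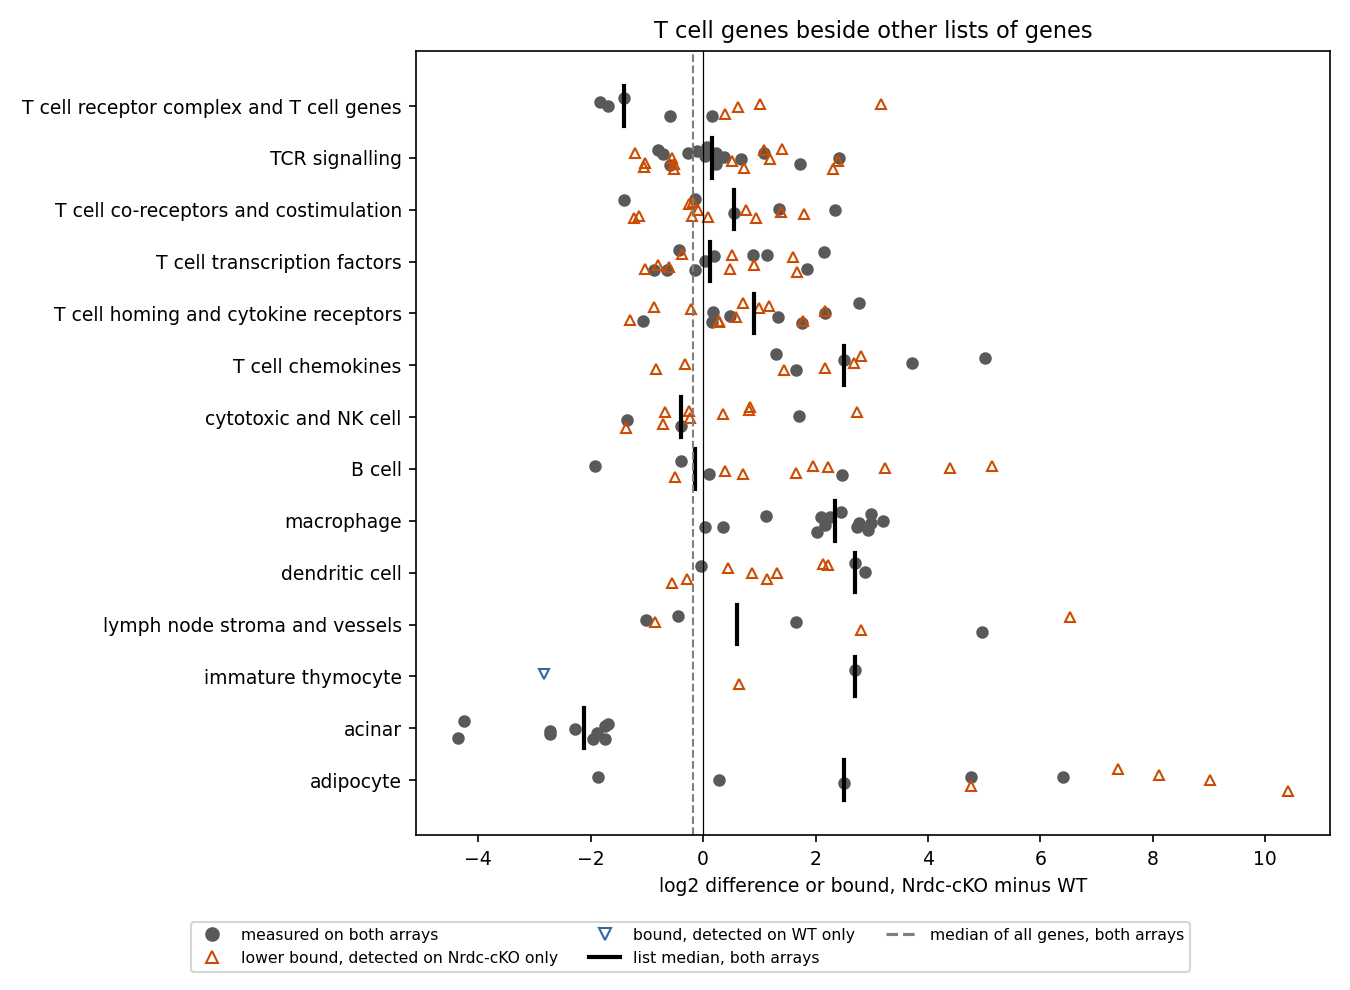
Log2 difference of genes measured on both arrays (filled circles) and bounds of genes detected on 1 array only (open triangles), Nrdc-cKO minus WT, for the T cell receptor complex and T cell genes and 13 other lists, with the list median (bar) and the median of all genes (dashed line, -0.18). The 5 T cell genes measured on both arrays lie between -1.84 and 0.15, and the 4 bounds lie between 0.39 and 3.17.

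The tissue and genotype labels were checked last. All 10 acinar genes were detected on both arrays. All 10 were at least 2-fold lower on Nrdc-cKO after scaling, against 17.3% of all genes so measured. Their median of -2.12 was -0.24 with spike-in scaling and -0.46 with quantile scaling. Adipocyte genes were detected in 5 of 10 on WT and 10 of 10 on Nrdc-cKO, and their summed level was 25.3 and 754. Nrdc had a signal of 270.4 ± 27.1 on WT and 93.9 ± 9.76 on Nrdc-cKO, a scaled difference of -3.21 by 1 probe, and the sources used here do not say whether this probe lies in the deleted part. The non-control spots well above background were 46.3% on WT and 60.3% on Nrdc-cKO. The part of these differences in tissue makeup and detection in the T cell values was not tested.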

How the data were processed

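RNA was labelled with Cy3 and hybridised to 1 array per group, per the labels' protocols. The deposited files hold the processed intensity of each spot, background-subtracted and detrended by Agilent Feature Extraction (version 12.0.3.1 per the file headers, 11.5.1.1 per the submitters' processing notes), with its error, its median intensity and flags stored as 0 or 1 (other values), and are not normalized between arrays, per the file headers. The authors' deposited value table holds the same intensity times 4.37 (WT) and 1.92 (Nrdc-cKO), on a linear scale, not centred. Its medians are 42.5 and 66.0, and no source used here says how its scale was chosen.

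Outlier spots (80 on WT, 74 on Nrdc-cKO) were left out, repeat spots were averaged as log2, and the array's 75th percentile over 56604 probes was subtracted. Detection of a probe required the well-above-background flag on a share of 0.5 or more of its spots. A gene's difference was the mean over probes detected on both arrays, and a bound the mean over probes detected on 1. The limit for counts was 2-fold. RefSeq accessions named 32993 probes (table of assembly GRCm38.p6, names and gene order only). The error of a log2 difference was propagated from the spot errors, and intervals between animals could not be had. The calculation was tested on simulated data. Python 3.11.15 and, for normexp, limma 3.58.1 were used, and the alternatives were quantile, detected-probe, loess, spike-in and no scaling, the value table, normexp, other filters, probe rules and thresholds. The 10 genes and all lists were chosen with earlier results of these data known. The rule for named genes took all 10, Nrdc, and, of each list, the 4 with the largest difference and the 3 with the largest bound. Of these, 1 signalling gene is not reported here. With 2 arrays no likeness of patterns could be computed.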

Additional observations from a re-analysis of the deposited data

How the results depend on the processing

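No paired analysis was possible because the WT and Nrdc-cKO groups hold a single array each, and leaving out a replicate was not possible either. The median of the 5 T cell genes measured on both arrays, -1.41, was -1.19 with loess, -0.91 in the value table, -0.87 with normexp and the 75th percentile, -1.08 with normexp and quantile scaling, 0.48 with spike-in scaling, 0.28 without scaling and 0.17 with no filter on dim probes, where all 10 genes enter. Cd3e turned to 0.48 with spike-in scaling and 0.28 without scaling, and Cd247 and Cd6 to 0.19 and 0.048 under the spike-in setting. T cell genes at least 2-fold higher were 2 with spike-in scaling, 2 without scaling and 4 with no filter, against 0, and those lower were 0 with spike-in scaling, without scaling and at 4-fold, against 3. The median bound of the 4 genes seen on the Nrdc-cKO array only, 0.82, was 2.06 with loess, 2.70 with spike-in scaling, 2.50 without scaling, 1.31 in the value table, 0.011 with normexp and the 75th percentile, 0.59 with normexp and quantile scaling, and 2.24 with the probe of highest bound, which was added after seeing the data. The normexp setting with the 75th percentile left no fold for Cd3g (-0.50) and Zap70 (-0.22).

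Over all named genes, those at least 2-fold higher, 1666, were 10331 with spike-in scaling, 9436 without scaling, 3108 with no filter, 2888 by the value table, 902 with bright probes, 2617 at 1.5-fold and 485 at 4-fold. Those lower, 2252, were 1386 with loess, 118 with spike-in scaling, 144 without scaling, 1074 by the value table, 1146 after normexp with the 75th percentile, 847 after normexp with quantile scaling, 8013 with no filter, 1324 with bright probes, 4065 at 1.5-fold and 390 at 4-fold. Requiring all spots of a probe to be well above background gave no separate value for the 4 bounds, since each of these probes has 1 spot. Where a scaling adds 1 constant, as spike-in and no scaling and the value table do, its construction gives the shift, and otherwise the cause was not tested. Signal over background limits Cd8a, and on the WT array Cd3g, Cd2, Lck and Zap70.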
